A study of Mus musculus with 49 samples.

Results

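Ctrl 48 h cells, HEL-Ig immature B cells that had spent 48 h without IL-7 and without antigen, were compared with HEL-Mhi cells, HEL-Ig immature B cells taken at the end of IL-7 culture. The 6 samples, 3 of each group, are 6 of the 49 samples of a study of what immature B cells express when signals from their antigen receptor are removed or added. The members were chosen by title: the 3 samples titled as 48 h controls without antigen and the 3 titled as HEL-Mhi. HEL-Ig mice carry a conventional transgene for an antibody against hen egg lysozyme (HEL), so nearly every B cell of these mice bears the same receptor. The Ctrl 48 h cells came from bone marrow of mice with both HEL-Ig and Rag2-GFP, a green reporter driven by regulatory DNA of the recombinase gene Rag2. The marrow was cultured for 5 days with 16 ng/ml IL-7, washed, held for 48 h in medium without IL-7 or HEL, and sorted as B220+ IgMa-high GFP-negative. The HEL-Mhi cells came from anti-HEL Ig transgenic marrow expanded for 5 days in IL-7, and were sorted as IgM-high and IgD-negative to IgD-low. The Rag2-GFP reporter is not named in the labels of HEL-Mhi, and no IgD gate is named for Ctrl 48 h. Mice of the study were generally 4 to 8 weeks old.

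IL-7 is a cytokine made by marrow stroma that drives early B cell progenitors to survive and divide. It acts through a receptor of the Il7r chain and the common gamma chain, with the kinases Jak1 and Jak3 and the transcription factor Stat5. Pro-B cells rearrange the heavy chain gene with the Rag1 and Rag2 recombinase, large pre-B cells divide while they display the surrogate light chain of Vpreb1 and Igll1, and small pre-B cells leave the cell cycle and rearrange a light chain. Immature B cells carry complete IgM and are checked for reactivity to self before they leave the marrow. A rearranged Ig transgene, as in HEL-Ig mice, shortens these stages.

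Each sample was a microarray of the U74A type, on which a probe set reports one transcript as a hybridization signal in arbitrary units. Values below are signals after quantile normalization over the 6 arrays, with signals under 20 raised to 20, and differences are log2 Ctrl 48 h minus log2 HEL-Mhi from limma with its standard error (SE). A probe set was called at an adjusted p under 0.05. Correlations of log2 signals over the 9977 probe sets ran from 0.939 to 0.946 among Ctrl 48 h arrays, from 0.945 to 0.953 among HEL-Mhi arrays, and from 0.906 to 0.927 between the groups. RNA extraction and labelling chemistry differed between the groups, so that these steps and the 48 h without IL-7 cannot be told apart. The methods describe repeated sorts for groups such as HEL-Mhi but do not describe the Ctrl 48 h samples, and nothing says which samples came from separate cultures or mice, so the p-values measure the spread between these 3 and 3 samples, which may be technical. Genes of the sorted proteins were detected. Ighm, the IgM heavy chain gene, had 176893 units on each of the 3 Ctrl 48 h arrays, against 158333, 176893 and 176893 units on the HEL-Mhi arrays, values set by its rank at or near the top of each array. Ptprc, which encodes B220, had 11048, 8803 and 7941 units in Ctrl 48 h cells and 6899, 7680 and 8669 units in HEL-Mhi cells. Rag2, the gene of the reporter gate, was low in both groups, with 58.6, 192 and 211 units in Ctrl 48 h cells and 75.2, 40.4 and 53.9 units in HEL-Mhi cells.

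More genes were called lower than higher after 48 h without IL-7, and the lower ones were led by genes of cell division. Of 7417 genes, each taken by its brightest probe set, 218 were lower in Ctrl 48 h cells (2.94%) and 76 were higher (1.02%), together 3.96%. Over all 9977 probe sets the counts were 277 lower (2.78%) and 105 higher (1.05%), or 3.83% in either direction, and 2267 had an unadjusted p under 0.05. Groups that did not overlap were far more common than calls: the 3 Ctrl 48 h values lay above the 3 HEL-Mhi values for 18.0% of genes and below them for 14.3%, together 32.3%. The lower calls were also the larger ones, with a median of -2.01 over the 218 genes and 111 of them at least 4-fold lower, whereas the 76 higher genes had a median of 1.32 and 11 were at least 4-fold higher. The median over all genes was 0.06. The split of calls depended on the scaling: 27.5% of called probe sets were higher in Ctrl 48 h cells after quantile normalization, but 77.2% without it, when the median of all probe sets moved from 0.05 to 0.40. Scaling moved with this shift, in that the 2% trimmed mean of the Ctrl 48 h arrays came to 1499 units over all 12654 rows and to 1812 to 1831 units over the 9977 probe sets tested, on which HEL-Mhi arrays had 1486 to 1489 units. Calls of probe sets fell in number when 1 array was left out: 44, 27 and 40 were higher and 158, 140 and 145 lower without Ctrl 48 h replicate 1, 2 or 3, and 28, 37 and 48 were higher and 95, 110 and 159 lower without HEL-Mhi replicate 1, 2 or 3.

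**Figure D1:**
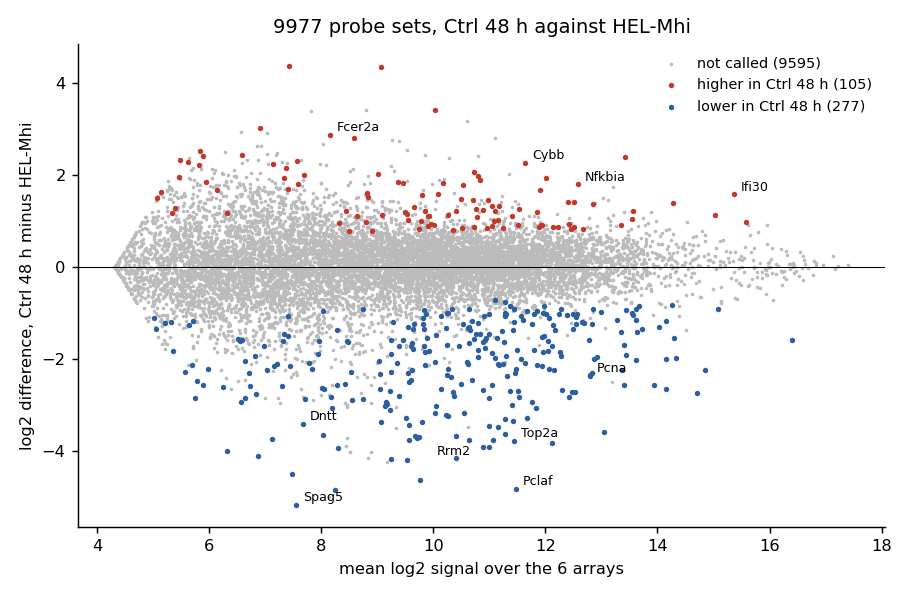
Each point is 1 of 9977 probe sets, with the mean log2 signal over the 6 arrays on the x axis and the log2 difference, Ctrl 48 h minus HEL-Mhi, on the y axis. The 277 probe sets called lower in Ctrl 48 h (blue) reach below -4 over a wide range of signal, while the 105 called higher (red) mostly lie between 0.8 and 3, and 9595 were not called (grey).

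Mitosis genes were lower almost without exception. Of 30 measured members of the mitosis list, 29 fell and 0 rose, with a median log2 difference of -2.76, against 0.06 for all genes and 2.94% of all genes called lower. Cdc20, the activator of the ubiquitin ligase that starts anaphase, had 2257, 2163 and 2261 units in Ctrl 48 h cells, against 14890, 15372 and 13653 units in HEL-Mhi cells (log2 difference -2.72, SE 0.13, limma adjusted p = 0.00335). The kinase gene Aurka, needed for spindle poles, had 327, 334 and 390 units in Ctrl 48 h cells and 3499, 3277 and 2686 units in HEL-Mhi cells (-3.17, SE 0.17, adjusted p = 0.0035). In each gene the Ctrl 48 h values lay far under the HEL-Mhi values. Prc1, a bundler of midzone microtubules, fell to a mean of 1148 ± 98.8 units in Ctrl 48 h cells, against 7408 ± 728 units in HEL-Mhi cells (SD, n = 3 each). Bub1, a spindle checkpoint kinase, fell to 234 ± 61.2 units, against 2944 ± 184 units. Mki67, the antigen used to stain dividing cells, had 784, 1073 and 1929 units in Ctrl 48 h cells, against 16964, 20885 and 13409 units in HEL-Mhi cells, and Top2a, a topoisomerase that untangles chromosomes, had 462, 891 and 1015 units against 11125, 11526 and 8571 units. Some members kept a high signal. Ccnb2, a mitotic cyclin, had 4231, 5829 and 7498 units in Ctrl 48 h cells, against 22756, 23360 and 18520 units in HEL-Mhi cells. The only member not called was the kinesin gene Cenpe, which was dim in both groups, with 51.8, 184 and 123 units in Ctrl 48 h cells and 154, 186 and 194 units in HEL-Mhi cells. With any 1 array left out, 21 to 26 members were called lower.

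Many promoters of these genes hold the same short element. TTTGAA, the cell cycle genes homology region (CHR), was found on either strand within 250 bases before to 50 bases after a RefSeq start in 18 of the 24 lower mitosis genes that had a promoter entry (75%), against 15.6% of the 5916 tested genes with an entry and 20.2% of all 27025 genes with one. CCAAT was found in 20 of the 24 (83.3%), against 42.5% of tested genes. The CHR and CCAAT were searched after the gene values were known, and a match is a description of the sequence, not a mapped site. The promoters of the 3 members with the smallest adjusted p that hold the CHR are printed 5' to 3' from RefSeq (GRCm38.p6), with each TTTGAA match on either strand in capitals: Cdc20 (chr4:118437294-118437593, minus strand), Aurka (chr2:172370521-172370820, minus strand) and Prc1 (chr7:80294201-80294500, plus strand). The match begins 18 bases before the start in Cdc20, 5 bases before it in Prc1 and 33 bases after it in Aurka.
Cdc20: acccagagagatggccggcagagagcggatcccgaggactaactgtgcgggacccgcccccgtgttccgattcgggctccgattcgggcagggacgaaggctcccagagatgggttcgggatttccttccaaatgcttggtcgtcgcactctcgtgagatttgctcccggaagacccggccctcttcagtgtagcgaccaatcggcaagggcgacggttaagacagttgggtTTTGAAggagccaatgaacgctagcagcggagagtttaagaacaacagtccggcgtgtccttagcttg
Aurka: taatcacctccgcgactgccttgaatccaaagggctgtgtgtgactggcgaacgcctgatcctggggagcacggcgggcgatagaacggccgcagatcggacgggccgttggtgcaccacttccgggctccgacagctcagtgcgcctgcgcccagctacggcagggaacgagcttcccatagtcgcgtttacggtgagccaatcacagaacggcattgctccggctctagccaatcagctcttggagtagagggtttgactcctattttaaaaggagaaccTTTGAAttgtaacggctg
Prc1: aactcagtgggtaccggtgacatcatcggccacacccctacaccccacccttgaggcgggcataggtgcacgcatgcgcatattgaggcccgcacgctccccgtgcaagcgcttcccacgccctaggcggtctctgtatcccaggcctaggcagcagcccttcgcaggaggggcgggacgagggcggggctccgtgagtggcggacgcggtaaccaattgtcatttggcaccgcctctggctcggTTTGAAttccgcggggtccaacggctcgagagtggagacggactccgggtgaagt

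DNA replication genes were lower in the second large block. Of 31 measured members, 17 fell and 0 rose, against 2.94% and 1.02% of all genes, with a median of -1.84. Pcna, the sliding clamp of the replication fork, had 3212, 2861 and 3309 units in Ctrl 48 h cells, against 18008, 16242 and 14312 units in HEL-Mhi cells (-2.37, SE 0.16, adjusted p = 0.00389). Rrm2, the inducible subunit of ribonucleotide reductase, had 446, 559 and 469 units in Ctrl 48 h cells and 9512, 7973 and 5385 units in HEL-Mhi cells (-3.92, SE 0.25, adjusted p = 0.00389). In both genes every Ctrl 48 h value lay below every HEL-Mhi value, and the gap was several times the spread within a group. The origin factor Cdc6, the helicase subunits Mcm2, Mcm4, Mcm5 and Mcm7, the polymerase genes Pola1 and Prim1, the clamp loader subunits Rfc4 and Rfc5, and the ligase gene Lig1 were among those that fell. Mcm5 had 1925, 2298 and 2000 units in Ctrl 48 h cells, against 19460, 16010 and 10268 units in HEL-Mhi cells. Mcm3 (log2 difference -1.98, adjusted p = 0.057) did not pass, and Mcm6 was dim and spread on this array, with 57.2, 108 and 160 units in Ctrl 48 h cells and 185, 91.7 and 30.5 units in HEL-Mhi cells. Replication calls were less stable than mitosis calls, with 7 to 14 members called lower when 1 array was left out: 11 without Ctrl 48 h replicate 1, 10 without Ctrl 48 h replicate 2, 11 without Ctrl 48 h replicate 3 7 without HEL-Mhi replicate 1 or 2 and 14 without HEL-Mhi replicate 3.

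E2F factors switch on replication genes at the start of S phase, and their motif was searched in 4 spellings, TTTCCCGC, TTTGGCGC, TTTCGCGC and TTTGCCGC, on both strands. It was found in 5 of the 16 lower replication genes with a promoter entry (31.3%) and in 1 of the 24 lower mitosis genes (4.17%), against 4.24% of tested genes and 2.61% of all genes. Over all lower genes 29 of 184 held it (15.8%), and over the higher genes 1 of 64 (1.56%). By comparison, the STAT motif TTCNNNGAA was found in 7.61% of lower and 10.9% of higher genes, against 8.50% of tested genes, and the E-box CACGTG in 12.0% of lower and 14.1% of higher genes, against 11.4%. The 3 lower replication genes with the smallest adjusted p that hold an E2F motif are shown with each match in capitals: Cdc6 (chr11:98907901-98908200, plus strand), Mcm5 (chr8:75109259-75109558, plus strand) and Pola1 (chrX:93632106-93632405, minus strand). The matches begin 138 bases before the start in Cdc6 and Pola1, and in Mcm5 overlapping matches on opposite strands begin 153 and 149 bases before it.
Cdc6: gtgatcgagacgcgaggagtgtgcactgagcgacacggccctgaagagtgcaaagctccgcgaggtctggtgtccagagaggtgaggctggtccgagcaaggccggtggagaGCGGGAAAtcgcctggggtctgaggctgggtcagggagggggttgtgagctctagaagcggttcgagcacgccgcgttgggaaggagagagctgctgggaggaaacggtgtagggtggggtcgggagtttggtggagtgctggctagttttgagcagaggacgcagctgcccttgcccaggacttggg
Mcm5: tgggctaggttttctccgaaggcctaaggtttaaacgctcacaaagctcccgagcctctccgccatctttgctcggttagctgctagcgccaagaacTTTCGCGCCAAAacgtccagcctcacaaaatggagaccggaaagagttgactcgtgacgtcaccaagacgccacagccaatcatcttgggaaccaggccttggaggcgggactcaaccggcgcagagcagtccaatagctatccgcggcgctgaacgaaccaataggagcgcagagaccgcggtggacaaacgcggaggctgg
Pola1: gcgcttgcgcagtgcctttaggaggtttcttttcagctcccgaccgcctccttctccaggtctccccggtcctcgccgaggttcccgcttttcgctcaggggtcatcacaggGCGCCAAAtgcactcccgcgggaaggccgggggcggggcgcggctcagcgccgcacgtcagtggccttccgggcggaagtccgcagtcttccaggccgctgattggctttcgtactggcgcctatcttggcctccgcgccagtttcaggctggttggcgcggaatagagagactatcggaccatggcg

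The 10 largest called falls among genes with a mean of at least 500 units in the higher group were Spag5, Myl10, Pclaf, E2f8, Mns1, Ttk, Ncaph, Asf1b, Prim1 and Rrm2. Pclaf, which encodes a protein bound to the replication clamp, had 544, 538 and 521 units in Ctrl 48 h cells, against 17712, 18045 and 10806 units in HEL-Mhi cells (-4.82, SE 0.24, adjusted p = 0.00335), a mean 29.1 times lower. Spag5, a spindle protein, had 30.8, 45.1 and 22 units in Ctrl 48 h cells and 1500, 1331 and 724 units in HEL-Mhi cells. E2f8, a repressor of the E2F family that is itself made in S phase, had 207, 117 and 222 units in Ctrl 48 h cells, against 5110, 4297 and 3765 units in HEL-Mhi cells. The checkpoint kinase Ttk, the condensin subunit Ncaph and the histone chaperone Asf1b had log2 differences of -4.20, -4.18 and -4.15. Myl10, a myosin light chain gene known as a marker of early B cell precursors in the mouse, had 20, 120 and 76.1 units in Ctrl 48 h cells and 1829, 1324 and 1789 units in HEL-Mhi cells. Myl10, Mns1 and Prim1 each had a Ctrl 48 h value near the floor, and they kept their call in 2, 1 and 1 of the 6 fits with 1 array left out, with adjusted p up to 0.104, 0.107 and 0.14.

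Chromatin genes were lower in part. Of 19 measured members of the chromatin and DNA methylation list, 10 fell and 0 rose (median -1.21, against 2.94% of all genes called lower). Smc2, a condensin subunit, had 535, 599 and 728 units in Ctrl 48 h cells, against 6952, 7408 and 6117 units in HEL-Mhi cells. Uhrf1, which brings the methyltransferase Dnmt1 to newly copied DNA, had 1238, 1352 and 1368 units in Ctrl 48 h cells, against 7333, 5938 and 5404 units in HEL-Mhi cells, and Dnmt1 itself fell (-1.21). Ezh2, the methyltransferase of the Polycomb complex, fell (-1.60), while its partners Suz12 (-0.89) and Eed (-0.21) were not called. Left-out arrays gave 6 to 9 chromatin calls, with 6 without Ctrl 48 h replicate 1 or 2 and without HEL-Mhi replicate 1 or 2, 8 without Ctrl 48 h replicate 3 and 9 without HEL-Mhi replicate 3. Of 6 histone genes measured, the variants H2ax and H2az1 fell: H2ax had 5897, 7412 and 6074 units in Ctrl 48 h cells, against 40068, 41667 and 33179 units in HEL-Mhi cells. H1f2 (1.45, adjusted p = 0.0614) and H3c14 (1.37, adjusted p = 0.0767) lay above HEL-Mhi on every Ctrl 48 h array without being called.

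Among regulators of the G1 to S step, 4 of 16 fell and 0 rose (median -0.31, against 2.94% of all genes called lower). They were Rbl1, a pocket protein that binds E2F (572, 478 and 619 units in Ctrl 48 h cells, 3180, 2970 and 2622 units in HEL-Mhi cells), E2f1, Tfdp1, the DNA-binding partner of E2F, and Mybl2, an activator of late cell cycle genes. Tfdp1 had 2450, 2542 and 1262 units in Ctrl 48 h cells and 10385, 10466 and 7410 units in HEL-Mhi cells. With 1 array left out, 1 to 3 members were called: 1 without Ctrl 48 h replicate 1 or HEL-Mhi replicate 2 or 3, 2 without Ctrl 48 h replicate 2 or HEL-Mhi replicate 1, and 3 without Ctrl 48 h replicate 3. E2f1, Tfdp1 and Mybl2 kept their calls in 1 of the 6 fits each (adjusted p up to 0.112). The D cyclin gene Ccnd2 did not differ beyond its spread (1044, 1514 and 1069 units in Ctrl 48 h cells, 1288, 869 and 2313 units in HEL-Mhi cells). Of 15 CDK inhibitor and quiescence genes, 1 rose and 0 fell, against 1.02% and 2.94% of all genes. That gene was Btg2, an antiproliferative p53 target, with 25081, 32995 and 40465 units in Ctrl 48 h cells, against 12594, 10566 and 13957 units in HEL-Mhi cells (1.39, SE 0.23, adjusted p = 0.0404, up to 0.128 with 1 array left out and called in 1 of the 6 such fits). Cdkn1a, the p21 inhibitor, was lower on every Ctrl 48 h array (823, 876 and 1289 units, against 1986, 1512 and 1629 units in HEL-Mhi cells) and was not called (adjusted p = 0.125), and a second probe set of it overlapped, with 814, 1197 and 1595 units in Ctrl 48 h cells and 1146, 988 and 1078 units in HEL-Mhi cells.

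**Figure D2:**
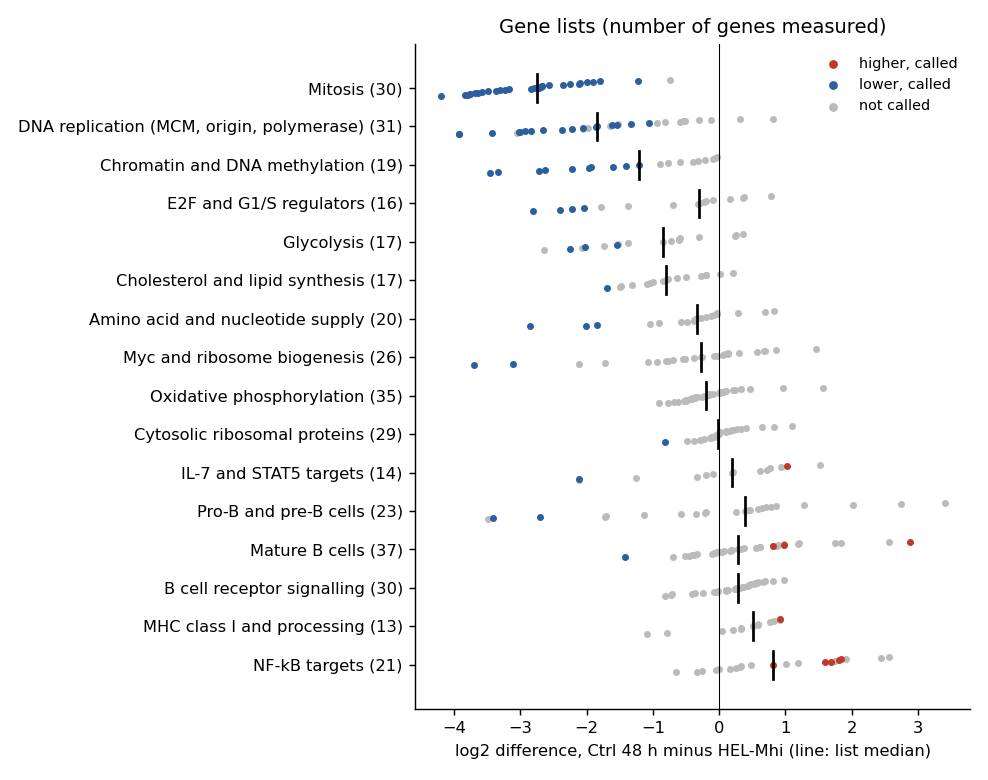
Each point is a gene of the named list, placed by its log2 difference, Ctrl 48 h minus HEL-Mhi (x axis), with blue for called lower, red for called higher and grey for not called, the list median as a black line, and the number of genes measured in parentheses. Mitosis and DNA replication lie to the left with medians of -2.76 and -1.84, and the NF-kB list lies farthest to the right among those plotted, with a median of 0.82.

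Most metabolic genes that serve growth lay below HEL-Mhi, and a few of them were called. In glycolysis 3 of 17 measured genes fell and 0 rose (median -0.85), 14 had a difference below 0, and 9 had groups that did not overlap with Ctrl 48 h lower, against 14.3% of all genes. The called genes were Tpi1, Pgk1 and Pkm. Tpi1, triosephosphate isomerase, had 4014, 6621 and 4375 units in Ctrl 48 h cells, against 23814, 18822 and 27581 units in HEL-Mhi cells (-2.24, SE 0.26, adjusted p = 0.0148). The number of glycolytic genes called was 3 without HEL-Mhi replicate 2, 1 without Ctrl 48 h replicate 1 or 2 and 0 without Ctrl 48 h replicate 3 or HEL-Mhi replicate 1 or 3. Tpi1, Pgk1 and Pkm kept their calls in 3, 1 and 0 of the 6 fits with 1 array left out, with adjusted p up to 0.0728, 0.105 and 0.152. Ldha, lactate dehydrogenase, was lower on every Ctrl 48 h array without a call (14817, 19865 and 10412 units in Ctrl 48 h cells, 41312, 30657 and 41667 units in HEL-Mhi cells, adjusted p = 0.0626). Psat1, an enzyme of serine synthesis, had 719, 647 and 936 units in Ctrl 48 h cells, against 6957, 5791 and 4090 units in HEL-Mhi cells (-2.86, SE 0.26, adjusted p = 0.00787), and with the folate enzyme Mthfd2 and the methionine cycle enzyme Ahcy it made 3 falls among 20 amino acid and nucleotide supply genes. Of these 20, 17 had a difference below 0 and 8 had non-overlapping groups with Ctrl 48 h lower (median -0.34), and the number called was 1 without Ctrl 48 h replicate 2 or HEL-Mhi replicate 1, 2 without Ctrl 48 h replicate 1 or 3 or HEL-Mhi replicate 2, and 3 without HEL-Mhi replicate 3. In cholesterol and lipid synthesis 1 of 17 fell, the desaturase Scd2 (6801, 6473 and 4999 units in Ctrl 48 h cells, 20525, 19718 and 18199 units in HEL-Mhi cells), 15 of the 17 had a difference below 0, and 9 had non-overlapping groups with Ctrl 48 h lower (median -0.80). Of 26 genes of the Myc and ribosome biogenesis list, 2 fell: Mxd3, a Max partner made in S phase (242, 340 and 164 units in Ctrl 48 h cells, 3776, 3193 and 2450 units in HEL-Mhi cells), and the aminotransferase Bcat1. Myc itself was dim, with 24.6, 112 and 118 units in Ctrl 48 h cells and 324, 421 and 196 units in HEL-Mhi cells, and was not called (adjusted p = 0.153). Calls were 0 of 35 respiratory chain genes (median -0.20), 0 of 28 proteasome subunits (median -0.32) and 1 of 29 cytosolic ribosomal proteins (Rpsa, lower), against 2.94% of all genes called lower. The proteasome differences were small but mostly on one side, with 26 of 28 below 0 and 12 with non-overlapping groups and Ctrl 48 h lower, against 14.3% of all genes. Ahcy, Mthfd2, Scd2, Bcat1 and Rpsa kept their calls in 1, 4, 4, 2 and 0 of the fits with 1 array left out, with adjusted p up to 0.127 among them.

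**Figure D3:**
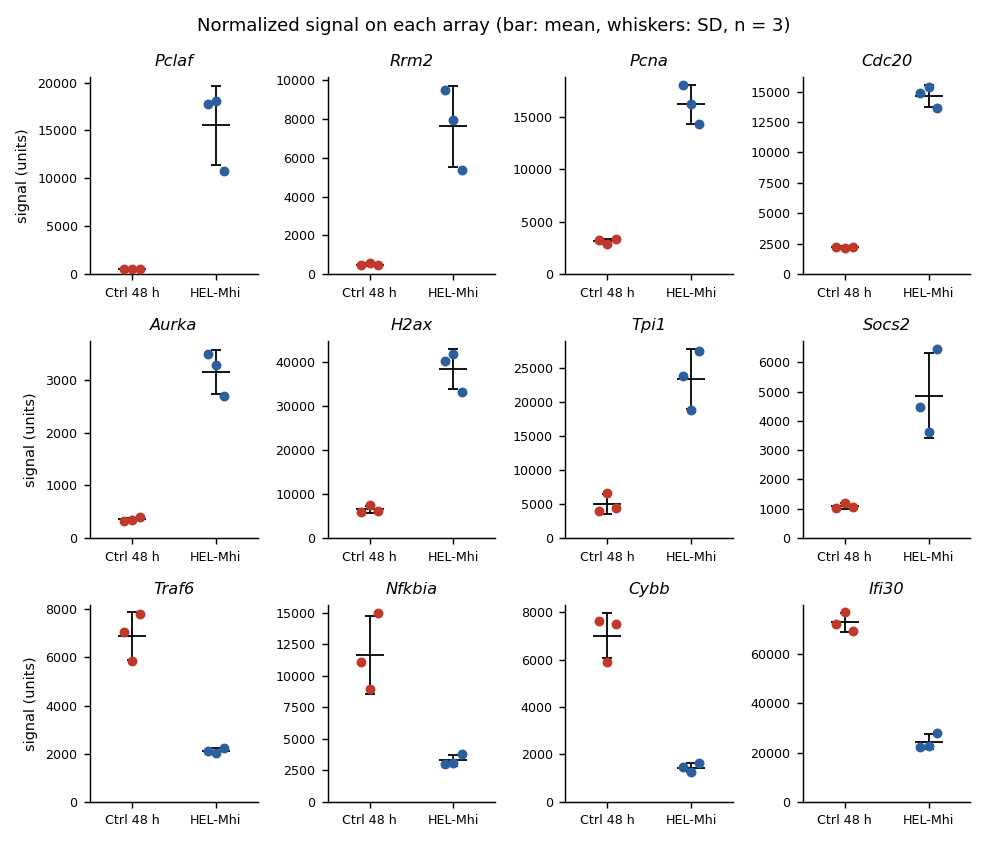
Normalized signal in units (y axis, from 0) on each of the 3 Ctrl 48 h arrays (red, left) and 3 HEL-Mhi arrays (blue, right) for 12 called genes, with the mean and SD. The 8 genes of division, metabolism and IL-7 response are low in Ctrl 48 h cells, as Pclaf with a mean of 534 units against 15521 units, and the last 4 are high, as Cybb with 7020 units against 1447 units, with no overlap of the groups in any panel.

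Genes of the IL-7 pathway did not move as a group. Of 14 measured IL-7 and STAT5 targets, 1 fell and 1 rose, against 2.94% and 1.02% of all genes (median 0.20). Socs2, a feedback inhibitor induced by STAT5, had 1022, 1200 and 1053 units in Ctrl 48 h cells, against 4485, 3636 and 6457 units in HEL-Mhi cells (-2.12, SE 0.25, adjusted p = 0.0147). Pim2, a survival kinase, went the other way, with 3921, 2855 and 3040 units in Ctrl 48 h cells and 1482, 1559 and 1772 units in HEL-Mhi cells (1.02, SE 0.18, adjusted p = 0.0473). Socs2 and Pim2 kept their calls in 2 and 0 of the 6 fits with 1 array left out, with adjusted p up to 0.0661 and 0.148. Cish, another STAT5 feedback gene, had 888, 619 and 712 units in Ctrl 48 h cells and 975, 687 and 704 units in HEL-Mhi cells, which overlap. None of the 7 receptor chains and kinases was called. Il7r, the receptor's own chain, had 1175, 1163 and 3771 units in Ctrl 48 h cells, against 315, 286 and 189 units in HEL-Mhi cells (2.75, SE 0.52, adjusted p = 0.0523). The groups of Il7r did not overlap, the third Ctrl 48 h array was the farthest out, and without that array the difference was 2.19 and passed (adjusted p = 0.0465). Of 16 FoxO targets, among which Il7r and Rag1 are counted, 0 were called.

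Genes of the pro-B and pre-B stages split. Of 23 measured, 2 fell and 0 rose, against 2.94% and 1.02% of all genes (median 0.39). Groups did not overlap in 9 with Ctrl 48 h higher and in 6 with Ctrl 48 h lower, against 18.0% and 14.3% of all genes. Dntt, the terminal transferase that adds bases at heavy chain joints, had 47.0, 55.7 and 92.2 units in Ctrl 48 h cells, against 666, 453 and 975 units in HEL-Mhi cells (-3.42, SE 0.38, adjusted p = 0.0129). A second Dntt probe set had 147, 113 and 49.6 units, against 190, 209 and 255 units, and was not called (-1.21, SE 0.43, adjusted p = 0.176). Igll1, lambda 5 of the surrogate light chain, had 539, 1149 and 1811 units in Ctrl 48 h cells, against 7958, 7556 and 5182 units in HEL-Mhi cells (-2.71, SE 0.48, adjusted p = 0.0454). Its partner Vpreb1 had 108, 776 and 1252 units in Ctrl 48 h cells and 5779, 4480 and 5657 units in HEL-Mhi cells. Those groups did not overlap, but the Ctrl 48 h values were widely spread and Vpreb1 was not called (-3.48, SE 0.92, adjusted p = 0.102), although it passed without Ctrl 48 h replicate 1 (-2.43, adjusted p = 0.0382). Dntt and Igll1 kept their calls in 4 and 0 of the 6 fits with 1 array left out, with adjusted p up to 0.0661 and 0.143.

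Rag1 lay above HEL-Mhi on each Ctrl 48 h array, with 776, 407 and 1272 units against 153, 24.6 and 88.8 units (3.41, SE 0.78, adjusted p = 0.0748), and Rag2, whose reporter set the gate, overlapped. Among 9 recombination genes Polm, a polymerase that fills joints, rose to 10454, 11857 and 13841 units in Ctrl 48 h cells, against 4412, 4408 and 4984 units in HEL-Mhi cells, and Dntt and the DNA-bending Hmgb2 fell. Over all genes 1.02% were called higher and 2.94% lower. Polm kept its call in 3 of the fits with 1 array left out (adjusted p up to 0.0782). The Ctrl 48 h arrays differed among themselves in some genes of this kind, picked after their values were seen. The third held the highest of the 3 values of Rag1, Rag2, Dntt, Igll1, Vpreb1, Il7r, Irf4, Myb and Sox4, for example 23494 units of Myb against 10494 and 13621 units. It did not hold the highest value of Spn, Lef1 or Jun, which the study also names. For the second Dntt probe set the third array held the lowest of the 3 values (147, 113 and 49.6 units). The third array was scanned on another day than the first and second, and the part of the scan day was not tested. Irf4, a factor of light chain opening and of plasma cells, had 3415, 4390 and 9723 units in Ctrl 48 h cells, against 1252, 1128 and 1549 units in HEL-Mhi cells, and was not called (adjusted p = 0.0612).

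**Figure D4:**
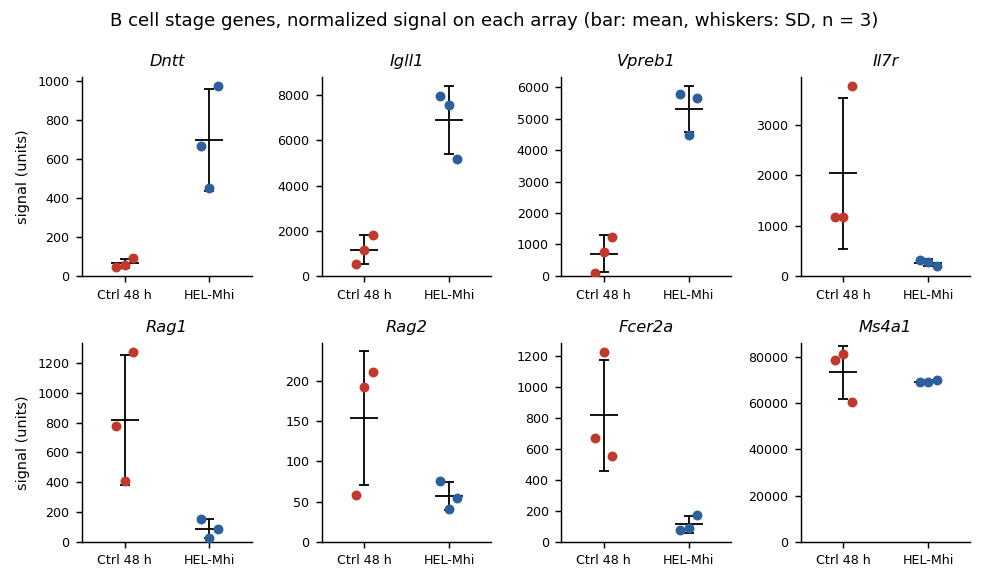
Normalized signal in units (y axis, from 0) of 8 B cell stage genes on each of the 3 Ctrl 48 h arrays (red, left) and 3 HEL-Mhi arrays (blue, right), with the mean and SD. Dntt, Igll1 and Vpreb1 are lower and Il7r, Rag1 and Fcer2a higher in Ctrl 48 h cells, Rag2 and Ms4a1 overlap, and the Ctrl 48 h points of Il7r, Rag1 and Vpreb1 are widely spread.

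NF-kB genes were another group with rises. Of 21 measured members, 5 rose and 0 fell (median 0.82, against 1.02% of all genes called higher), and in 12 the 3 Ctrl 48 h values lay above the 3 HEL-Mhi values, against 18.0% of all genes. Nfkbia, which encodes the inhibitor IkB alpha and is itself induced by NF-kB, had 11076, 8933 and 15026 units in Ctrl 48 h cells, against 2970, 3110 and 3786 units in HEL-Mhi cells (1.80, SE 0.24, adjusted p = 0.0223). Traf6, an adaptor of receptors that activate NF-kB, had 7033, 5835 and 7806 units in Ctrl 48 h cells and 2112, 2040 and 2225 units in HEL-Mhi cells (1.69, SE 0.17, adjusted p = 0.00875). In both genes the groups were well apart. Relb and Nfkb2, subunits of the noncanonical dimer, had 1950, 2761 and 1911 units and 2044, 1854 and 1759 units in Ctrl 48 h cells, against 423, 835 and 633 units and 638, 473 and 803 units in HEL-Mhi cells. The fifth was the adhesion molecule gene Icam1 (0.82, adjusted p = 0.0473). Cd40 (1.19, adjusted p = 0.0523), the lymphotoxin gene Ltb (1.75, adjusted p = 0.126), the deubiquitinase gene Tnfaip3 (2.44, adjusted p = 0.131) and Cd83 (2.56, adjusted p = 0.131) were higher on every Ctrl 48 h array and were not called. With 1 array left out, 1 to 3 members were called: 2 without Ctrl 48 h replicate 1 or 3, 3 without Ctrl 48 h replicate 2, 1 without HEL-Mhi replicate 1 or 2 and 2 without HEL-Mhi replicate 3, and Traf6 was called in all 6 of these fits. The consensus kappa B motif of NF-kB, with any base allowed at the fifth position, was searched on both strands after the values were known and was found in the promoter windows of 2 of the 4 risen list genes with an entry, Nfkbia and Nfkb2, against 0.575% of tested genes and 0.466% of all genes with one. Both are shown with the match in capitals: Nfkbia (chr12:55492598-55492897, minus strand), where it begins 29 bases before the start, and Nfkb2 (chr19:46305445-46305744, plus strand), where it begins at base 11 after it. The STAT motif was also found in 2 of the 4 risen list genes with an entry, against 8.50% of tested genes.
Nfkbia: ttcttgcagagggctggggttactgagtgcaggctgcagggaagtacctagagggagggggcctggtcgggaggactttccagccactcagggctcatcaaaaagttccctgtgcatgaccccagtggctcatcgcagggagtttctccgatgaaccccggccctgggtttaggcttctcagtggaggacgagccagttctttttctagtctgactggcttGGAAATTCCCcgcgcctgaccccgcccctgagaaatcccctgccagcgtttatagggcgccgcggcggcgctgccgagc
Nfkb2: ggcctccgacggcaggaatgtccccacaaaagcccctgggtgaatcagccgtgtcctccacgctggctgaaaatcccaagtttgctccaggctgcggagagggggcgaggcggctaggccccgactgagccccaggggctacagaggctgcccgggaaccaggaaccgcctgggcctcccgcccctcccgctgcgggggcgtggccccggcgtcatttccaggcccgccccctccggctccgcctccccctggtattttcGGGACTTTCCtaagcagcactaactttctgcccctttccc

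The largest rises of single genes had mixed functions. They were Fcer2a, Rasd1, Cybb, Adgrg1, Dusp6, Grn, Trio, Cfp, Relb and Nfkbia. Fcer2a, the CD23 antigen of later B cell stages, had 672, 1228 and 556 units in Ctrl 48 h cells, against 74.3, 88.9 and 174 units in HEL-Mhi cells (2.88, SE 0.45, adjusted p = 0.033). Cybb, the catalytic subunit of the phagocyte oxidase, which B cells also express, had 7626, 5914 and 7520 units in Ctrl 48 h cells and 1468, 1245 and 1630 units in HEL-Mhi cells (2.28, SE 0.19, adjusted p = 0.00601). Rasd1, a small GTPase gene, had 832, 929 and 1330 units in Ctrl 48 h cells, against 174, 120 and 145 units in HEL-Mhi cells. Dusp6, a phosphatase that is induced by and acts on ERK, had 3627, 3914 and 3097 units in Ctrl 48 h cells, against 681, 1262 and 836 units in HEL-Mhi cells. Dusp1, a related phosphatase of the immediate early class, fell (446, 327 and 342 units in Ctrl 48 h cells, 1228, 1460 and 1001 units in HEL-Mhi cells, adjusted p = 0.019). Rasd1 and Cybb kept their calls in all 6 fits with 1 array left out, Nfkbia and Dusp1 in 2, Fcer2a, Dusp6, Grn, Trio and Cfp in 1, and Adgrg1 and Relb in 0, with adjusted p up to 0.141 among these 11. The list of Bcl2 family and death genes held 2 rises of 22, Hrk (405, 278 and 261 units in Ctrl 48 h cells, 47.9, 54.3 and 104 units in HEL-Mhi cells), a BH3-only activator of apoptosis, and Bok, with calls in 1 and 0 of those fits. Over all genes 1.02% were called higher. Bcl2 (1690, 1940 and 1348 units in Ctrl 48 h cells, 1180, 1557 and 1615 units in HEL-Mhi cells) and Bcl2l11 (3384, 4158 and 3674 units, against 3867, 3505 and 4464 units) overlapped.

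Among 37 mature B cell genes, 3 rose (Fcer2a, Icam1 and Cd52), against 1.02% of all genes, and 1 fell (Lgals1, a galectin). In 16 of the 37 the Ctrl 48 h values lay above all HEL-Mhi values, against 18.0% of all genes. The count of rises moved with the settings, to 7 with a floor of 100 units, 10 without further normalization and 13 with an intensity trend and robust moderation. Cd52 had 68890, 73300 and 63213 units in Ctrl 48 h cells, against 32995, 35579 and 35871 units in HEL-Mhi cells (0.97, SE 0.14, adjusted p = 0.0276). The list held 2 rises without HEL-Mhi replicate 3, 1 without Ctrl 48 h replicate 2 and 0 with any other array left out, and Icam1 and Cd52 kept their call in 0 of the 6 such fits, with adjusted p up to 0.137 and 0.104. Ms4a1, the CD20 gene, had 78436, 81252 and 60259 units in Ctrl 48 h cells and 68890, 68890 and 69985 units in HEL-Mhi cells. None of 30 B cell receptor signalling genes (median 0.28) and none of 18 B lineage factors (median 0.35) was called, although Ctrl 48 h values lay above all HEL-Mhi values in 10 and 9 of them, and Pax5 had 7281, 7472 and 8624 units in Ctrl 48 h cells and 5829, 5672 and 9123 units in HEL-Mhi cells. Of 14 MHC class II genes the only rise was Ifi30, the lysosomal thiol reductase that prepares antigen for these molecules, with 72155, 77097 and 69414 units in Ctrl 48 h cells, against 22444, 22690 and 27975 units in HEL-Mhi cells (1.59, SE 0.16, adjusted p = 0.00876). In the MHC class I list 1 of 13 rose, H2-M3 (0.92, adjusted p = 0.0416, called in 0 of the 6 fits with 1 array left out, up to 0.129), the median was 0.51, 9 of the 13 had non-overlapping groups with Ctrl 48 h higher, and H2-K1 had 92032, 94200 and 77097 units in Ctrl 48 h cells, against 40769, 43473 and 55451 units in HEL-Mhi cells without a call (adjusted p = 0.0573). Of 24 interferon targets 1 fell, against 2.94% of all genes. It was Ifit2, called in 3 of the 6 fits with 1 array left out, with adjusted p up to 0.0752 (54.6, 49.4 and 20 units in Ctrl 48 h cells, 374, 559 and 626 units in HEL-Mhi cells). Ighd, the IgD gene, had 3502, 3361 and 2387 units in Ctrl 48 h cells and 1540, 2339 and 2134 units in HEL-Mhi cells (0.62, adjusted p = 0.214). Of 35 heavy chain and 36 kappa chain probe sets, 0 and 1 were called higher, against 1.05% of all probe sets. Ctrl 48 h values lay above all HEL-Mhi values in 9 of the 35 (median 0.22) and 16 of the 36 (median 0.64), against 16.7% of all probe sets.

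Probe sets of 1 gene did not always agree, which was noticed after the values were seen. A second Cd83 probe set was called, with 2295, 3113 and 1993 units in Ctrl 48 h cells and 53.6, 131 and 240 units in HEL-Mhi cells (4.35, SE 0.56, adjusted p = 0.0206), while the brighter one was not. Of 3 probe sets for Ctse, an aspartic protease, 1 was called (3.42, adjusted p = 0.00335) and the brighter 2 were not (0.45 and 0.00). Among the 218 lower genes, 34 had further probe sets, and 34 of those 38 had a difference below 0, with 11 called. Among the 76 higher genes, 5 had further probe sets, and 6 of 6 had a difference above 0.

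GFPneg cells give a time between the ends. They are HEL-Ig/Rag2-GFP cells held for 1 day without IL-7 and sorted as IgM-positive and GFP-negative, measured on 3 arrays of the U74Av2 type in another table. Because that table was made separately, each probe set was ranked within its own array among the 9977 shared ones, and no test was made. Mitosis genes had median ranks at the 93.5, 93.7 and 91.3 percentiles in HEL-Mhi cells, 93.1, 89.6 and 87.9 in GFPneg cells and 55.3, 61.4 and 60.8 in Ctrl 48 h cells. Replication genes stood at 83.2, 80.2 and 75.7, then 87.2, 81.9 and 80.5, then 51.0, 59.2 and 50.4. On these arrays the ranks of division genes at 1 day were close to those at the end of IL-7 culture, and the low ranks were seen at 48 h. GFPneg arrays share the stated scaling target of 1500 units with HEL-Mhi arrays, and for Ctrl 48 h arrays no target is stated. Time without IL-7 and the handling of samples and arrays therefore cannot be told apart in this order of groups. Rrm2 was at the 95.2, 94.0 and 90.4 percentiles in HEL-Mhi cells, 96.8, 93.8 and 93.5 in GFPneg cells and 44.8, 49.1 and 45.7 in Ctrl 48 h cells. Vpreb1 likewise stood at 91.1, 88.3 and 90.9, then 85.0, 88.3 and 90.6, then 20.8, 55.4 and 65.4.

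Some genes of other functions already had ranks at 1 day near those of 48 h. Traf6 was at the 76.0, 75.3 and 77.0 percentiles in HEL-Mhi cells, 89.5, 91.4 and 91.0 in GFPneg cells and 93.0, 91.2 and 93.9 in Ctrl 48 h cells, and Nfkbia at 82.4, 83.2 and 86.1, then 94.4, 93.9 and 94.0, then 96.1, 94.8 and 97.4. Il7r was not of this kind and stood at 38.4, 36.6 and 29.4, then 84.7, 82.0 and 87.2, then 64.1, 63.8 and 86.1. Its GFPneg ranks lay above those of the first and second Ctrl 48 h arrays and near that of the third. Socs2 stepped down through 88.3, 85.6 and 92.3, then 77.4, 79.0 and 79.6, then 61.1, 64.5 and 61.7. The NF-kB list as a whole had median ranks of 64.0, 61.9 and 64.5 in HEL-Mhi cells, 62.6, 66.0 and 63.6 in GFPneg cells and 76.6, 75.5 and 71.5 in Ctrl 48 h cells. Over all 218 lower genes, which were chosen on the outer groups, the GFPneg medians were 85.4, 81.4 and 80.5, and over the 76 higher genes 66.1, 68.0 and 66.9.

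**Figure D5:**
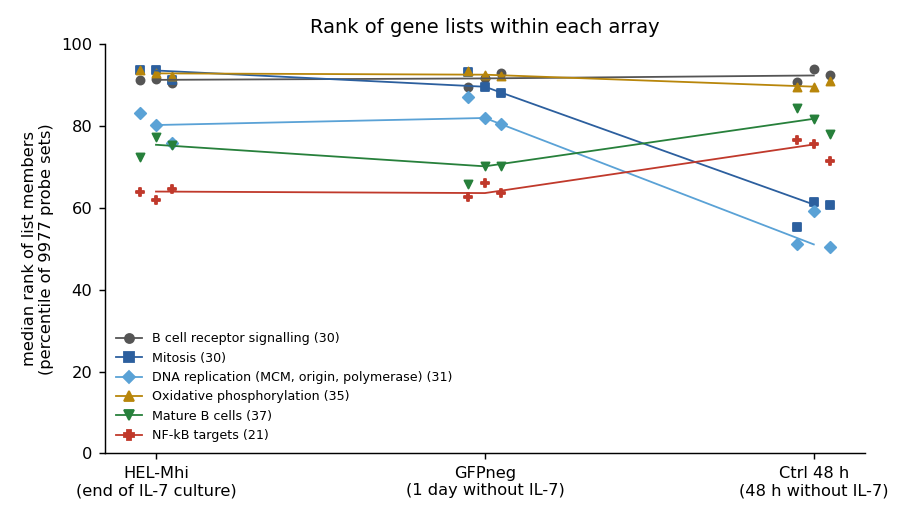
Median rank of list members within each array, as a percentile of 9977 probe sets (y axis), for HEL-Mhi, GFPneg and Ctrl 48 h cells in order of time without IL-7 (x axis), with 1 point an array, a line through the group medians and the number of genes in parentheses. Mitosis and DNA replication stay high at 1 day and lie between the 50.4 and 61.4 percentiles at 48 h, while B cell receptor signalling and oxidative phosphorylation stay near the 90th percentile throughout. Time without IL-7 and the handling of samples and arrays cannot be told apart here.

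HEL 48 h cells spent the same 48 h with 1 µg/ml HEL and were sorted as B220+ IgMa-high GFP-positive. Their values, normalized with the other 6 arrays, are set beside those above without a test. Some division genes were low there too: Pclaf had 791, 760 and 578 units, Cdc20 1693, 2145 and 1545 units and Mki67 608, 1158 and 588 units. Others lay between the values of Ctrl 48 h and HEL-Mhi cells, as Pcna with 8695, 5269 and 5183 units and Rbl1 with 1714, 1059 and 1007 units. Cfp, with 448, 457 and 470 units, stood nearer to HEL-Mhi than in Ctrl 48 h cells, and some other genes stood farther from it. Traf6 had 29683, 24436 and 26704 units, Il7r 6363, 7158 and 7363 units, and Rag1, whose neighbour Rag2 drives the reporter of the gate, 21882, 20828 and 19070 units.

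Markers of other cells were measured as summed signals, and some differed between the groups. The summed signal of 11 T cell markers was 3686 to 5048 units in Ctrl 48 h cells, against 6717 to 8798 units in HEL-Mhi cells, and 1 was called lower, Thy1 (234, 427 and 209 units, against 2274, 2940 and 3502 units), while Cd3e was at or under 169 units on all 6 arrays. Of these 11 markers, 6 had a difference below 0 and 5 above. The sum of 17 myeloid markers was 9806 to 12255 units in Ctrl 48 h cells and 11500 to 19951 units in HEL-Mhi cells with 0 called, and the granulocyte genes S100a8 and S100a9 were lower on each Ctrl 48 h array (297, 93.9 and 178 units of S100a9, against 736, 1376 and 2315 units). Of these 17 markers, 10 had a difference below 0 and 7 above. The sum of 13 stromal markers was 5307 to 6190 units in Ctrl 48 h cells, against 3024 to 3573 units in HEL-Mhi cells, with Bgn called higher (adjusted p = 0.0472, but in 0 of the 6 fits with 1 array left out, up to 0.148) and a second probe set of Col1a1 at 835, 875 and 662 units against 51.8, 34.9 and 29.6 units. The brighter Col1a1 probe set had 1452, 1598 and 1361 units, against 345, 1019 and 562 units, and was not called (1.33, adjusted p = 0.134). Of these 13 markers, 9 had a difference above 0 and 4 below. The sum of 6 NK markers was 650 to 916 units in Ctrl 48 h cells and 595 to 1222 units in HEL-Mhi cells, which overlap, and 1 of the 6, Gzmb, was called lower (57.4, 61.0 and 76.5 units, against 433, 288 and 463 units). Of these 6 markers, 3 had a difference above 0 and 3 below. Beside the single calls in these marker lists, 2.94% of all genes were called lower and 1.02% higher. The sum of 10 erythroid markers was 12979 to 16284 units in Ctrl 48 h cells, against 8512 to 12684 units in HEL-Mhi cells, with 0 called. Much of that sum was Tfrc, with 10385, 10162 and 12799 units in Ctrl 48 h cells, against 5339, 6515 and 9131 units in HEL-Mhi cells. Of these 10 markers, 5 had a difference above 0 and 5 below. For 9 mast cell and basophil markers the sum was 1282 to 2602 units against 1113 to 1641 units, with 0 called, and 7 had a difference above 0 and 2 below. The sum of 10 B lineage markers was 443297 to 480336 units in Ctrl 48 h cells and 371323 to 405622 units in HEL-Mhi cells. The part of other cells in the differences above was not tested, and in bulk samples fewer cells of a type and less RNA per cell cannot be told apart. Sex-linked transcripts differed between arrays and in part between the groups. The Y-linked Uty had 416, 298 and 321 units in Ctrl 48 h cells and 47.3, 32.6 and 47.7 units in HEL-Mhi cells, and was called (3.03, SE 0.23, adjusted p = 0.00523). The Y-linked Kdm5d was higher on each Ctrl 48 h array without a call (adjusted p = 0.0733), and Eif2s3y, also Y-linked, overlapped. Xist had 54.5, 1915 and 22.4 units in Ctrl 48 h cells and 3336, 6287 and 770 units in HEL-Mhi cells, which overlap. The part of the sex of the mice in the differences above was not tested.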

How the data were processed

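The authors summarized each array with Microarray Suite 5.0 (MAS5) and deposited linear hybridization intensities. Per the labels, HEL-Mhi arrays were masked and scaled to 1500 units. For Ctrl 48 h arrays neither is stated, and the values fit scaling to the same target over all rows without the mask. Of 12654 rows, 9977 had values on all 6 arrays. They were quantile normalized, raised to a floor of 20 units, put on the log2 scale and tested by the moderated test of limma (version 3.58.1, under R 4.3.3) with Benjamini-Hochberg adjustment. Of these probe sets 8724 match 1 gene of the platform annotation, 346 several and 907 none. A gene is given by its probe set with the highest mean log2 signal. Named genes are the 10 largest called rises and falls with non-overlapping groups and a mean of at least 500 units in the higher group, the 4 list members with the smallest adjusted p, and genes the study names. Other genes named were chosen after their values were seen. The members and the 32 gene lists and 7 marker lists were chosen with earlier results of these data known. The fit was tested on simulated data. Chip lot and scan day were read from the run records of the Ctrl 48 h and HEL 48 h arrays: 1 lot, with replicates 1 and 2 scanned on one day and replicate 3 on another. HEL-Mhi has no such record here, so batch and group cannot be told apart. Promoters are those of RefSeq (GRCm38.p6), with a gene counted as holding a motif if any of its windows does. Detection p-values were not used here.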

Additional observations from a re-analysis of the deposited data

How the results depend on the processing

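Counts of called probe sets, and without further normalization their split between higher and lower, moved with the settings. Against 105 higher and 277 lower, there were 908 higher and 268 lower without further normalization (77.2% higher, against 27.5%), 377 and 469 with a floor of 100 units, 270 and 445 with log2 of the signal plus 100, 298 and 450 over the 7422 probe sets with a group mean of at least 200 units, and 480 and 592 with an intensity trend and robust moderation. Median centring (102 and 267), trimmed mean scaling (129 and 285), a floor set before normalization (100 and 282) and a fit of 9 arrays (139 and 303) stayed within 1.5 times. The methods' t-test, which asks for p under 0.01 and for means that differ at least 2-fold and by more than 200 units, called 44 higher and 136 lower, and 0 and 0 after Benjamini-Hochberg adjustment, where 17 and 0 mitosis genes and 5 and 0 replication genes passed. With 1 array left out, 27 to 48 probe sets were higher and 95 to 159 lower, with 21 to 26 mitosis and 7 to 14 replication genes lower. Those fits also have fewer samples, and the cause of the smaller counts was not tested. Replicate numbers do not pair the groups: deviations of same-numbered arrays correlated at -0.01, -0.01 and 0.02. A fit with the replicate block called 0 higher and 0 lower, 0 mitosis and 0 replication genes, with 1880 probe sets at an unadjusted p under 0.05. Of 69 called genes named by rule, 29 kept their call in all 6 fits with 1 array left out and 13 in 0, and 0 of the 69 changed direction under the settings named here. Signals near 20 units limit the size of a fall, since the floor sets it.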
